A study of Arabidopsis thaliana with 9 samples.

Results

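The abundant transcripts of Arabidopsis thaliana sperm cells were taken as the genes selected on their measured level, at least 100 CPM (a gene's counts divided by the library's total counts and multiplied by 1000000) in all 6 sperm libraries. The rule found 699 of 32833 genes in the count table, or 2.13%, and all 699 matched a locus of the RefSeq annotation. The same sperm values chose the genes, so their levels and ranks are given as a description and no difference between groups was tested. A total of 697 are protein-coding and 2 are non-coding RNAs, GUT15 and AT1G52347.

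Sperm cells came from pollen tubes of a marker line carrying MGH3p::MGH3-GFP, which labels sperm nuclei, together with ACT11p::H2B-mRFP, and every library derives from that line, whose genotype the labels give as WT. In the semi in vivo group the tubes grew for 2 h in pistils of emasculated wild-type (Col-0) flowers, and then for 4 h on liquid medium with the pistil cut below the style. In the in vitro group pollen grew for 6 h on the same medium without a pistil. Nuclei of the vegetative cell, which forms the tube, were also collected from tubes grown in vitro and serve as the comparison. Each of the 3 groups has 3 libraries. Sperm cells are thus set beside nuclei, so differences of cell type and of cell part cannot be told apart. Cells and nuclei were collected by fluorescence-activated sorting and libraries were made with Smart-seq2, which amplifies whole cDNA by PCR and does not mark the strand. Whether replicates are separate plants or growth assays is not stated in the labels. Total RNA of sorted cells was measured in bulk, so a transcript present in fewer cells and one present at less RNA per cell cannot be told apart.

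A pollen grain holds a pair of small sperm cells inside the large vegetative cell, and the tube carries the sperm to the ovule, where one fuses with the egg cell and the other with the central cell. Sperm chromatin is condensed and carries its own histone variants. The MYB factor DUO1 is known to switch on much of the sperm gene programme, from membrane proteins used in gamete fusion to F-box and zinc finger genes, and some sperm transcripts are known to be delivered to the zygote.

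The DUO1-type MYB word, AACCGT or AACCGC on either strand, was looked for in the 300 bases before the annotated gene start, because several of the most abundant sperm transcripts are known DUO1 targets. Shown here are 30 bases around the word nearest to the gene start, 5′ to 3′ on the gene's strand with the word in capitals, from the RefSeq TAIR10.1 genome, for all 5 of the 20 most abundant genes that hold it and for the sperm genes HTR10 and GEX3.
DAF1: tagagaaacgagAACCGCcaaacgaacaaa
AT1G34095: agttttcagataACGGTTgcaagtttgtgc
AT1G75870: ccgatatttgatACGGTTtttctaaaagac
DAZ3: ataacggtcataAACCGCcgtgtggtcata
TIP5;1: ctcttcactgggACGGTTattttttttttt
HTR10: gaataattaaaaAACCGCtataacatgaga
GEX3: gaatttgtagtaAACCGTtacaagcagtac

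In TAIR10.1 these windows are chr3:23031445-23031474 (plus strand) for DAF1, chr1:12412737-12412766 (minus) for AT1G34095, chr1:28486145-28486174 (plus) for AT1G75870, chr4:16923251-16923280 (plus) for DAZ3, chr3:17481914-17481943 (plus) for TIP5;1, chr1:6904893-6904922 (plus) for HTR10 and chr5:5229412-5229441 (plus) for GEX3. The word ended 68 bases before the annotated start of DAF1, 66 before AT1G75870, 50 before DAZ3, 64 before TIP5;1, 52 before HTR10 and 83 before GEX3. In AT1G34095 it lay farther away, at 234 bases. DAF1 held 3 such words in its 300 bases, and HTR10 and GEX3 held 2 each.

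The MYB word was present before 124 of the 697 protein-coding abundant genes (17.8%), before 12.1% of all 27444 protein-coding genes and before 14.9% of the 8338 with a mean of at least 1 CPM in sperm. In a list of 22 known sperm genes, which was compiled partly from published DUO1 targets and is therefore no independent set, 13 held it (59.1%). Of the 15 genes of that list that were abundant, 8 held it (53.3%). PCR11, a DUO1 target among the 20 most abundant genes, did not. The TATA word TATAAA, the core of many strong promoters, was before 16 of the 20 most abundant genes (80%), before 364 of all abundant genes (52.2%) and before 52.9% of all protein-coding genes. The word TGGGCC, known as site II from promoters of growth-related genes, was before 24% of the abundant genes, 21.3% of genes at 1 CPM and 14.6% of all. TTCCCGC, the type bound by E2F factors of the cell cycle, was before 3.44%, 1.88% and 1.34% in the same order. Of the 20 most abundant genes, 2 held TGGGCC (10%) and 0 held TTCCCGC. All words were searched on both strands, matches of different words were counted even where they share bases (as TATAAA and AACCGC can), and a match is a string of letters rather than a shown binding site.

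Total counts were 24005795 to 41118337 in semi in vivo sperm, 14470065 to 40525238 in in vitro sperm and 13768069 to 35157304 in vegetative nuclei, so that 100 CPM stands for 1448 to 4112 counts in a sperm library and the counting error there is 1.56% to 2.63%. Without molecular identifiers that error covers counting only. In vitro sperm library 2 had the most genes with a count, 26982, and semi in vivo library 3 the fewest, 11640. No 2 libraries of a group were alike within sampling noise, since a chi-square of their counts came to 21.8 to 288 per gene.

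The sort label was set beside known genes, in lists chosen with earlier results of these data known. The 22 sperm genes together made 206251 to 236861 CPM in semi in vivo sperm, 217697 to 233544 CPM in in vitro sperm and 2560 to 5710 CPM in vegetative nuclei. DAF1, the most abundant gene, made most of these sums. It had 171176 to 202276, 183884 to 207018 and 1976 to 5032 CPM in the same order. Of 17 vegetative cell genes, such as the proton pump AHA8, the pectin methylesterase VGD1 and the receptor kinases ANX1 and BUPS1, the sums were 187.4 to 255.3 CPM, 243.1 to 310.9 CPM and 35032 to 52706 CPM in the same order, and 13 were below 10 CPM in every sperm library. The leucine-rich repeat extensin LRX11 made up most of the sperm value of that list and is its only abundant gene. ACT11, whose promoter drives the red marker, was at 19.8 to 52.2 CPM in sperm and 733.8 to 1291 CPM in nuclei. The 9 pistil and ovule genes summed to 0.0304 to 3.53 CPM in semi in vivo sperm and 0.654 to 16.9 CPM in in vitro sperm, the highest in in vitro library 2, which never met a pistil. SHP1 reached 5.28 CPM and NTT 4.22 CPM in that library, and both were at or below 0.691 CPM in the other sperm libraries.

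Counts in sperm were concentrated in few genes. The 699 abundant genes held 87.4% ± 0.87 of all sperm counts (SD, n = 6, range 86.2% to 88.5%), the 10 most abundant 46.4% ± 2.7 and the 20 most abundant 53.9% ± 2.5. A total of 11 genes had a median of at least 10000 CPM and held 47.5% of counts, 74 lay between 1000 and 10000 CPM with 20.6%, 375 between 200 and 1000 CPM with 15.4%, and 239 between 100 and 200 CPM with 3.79%. Reaching 50% of a library's counts took 11, 18 and 12 genes in semi in vivo sperm, 13, 14 and 19 in in vitro sperm and 49, 88 and 97 in vegetative nuclei. For 80% it took 269, 333 and 259 genes in semi in vivo sperm, 302, 344 and 358 in in vitro sperm and 404, 712 and 684 in nuclei.

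**Figure D1:**
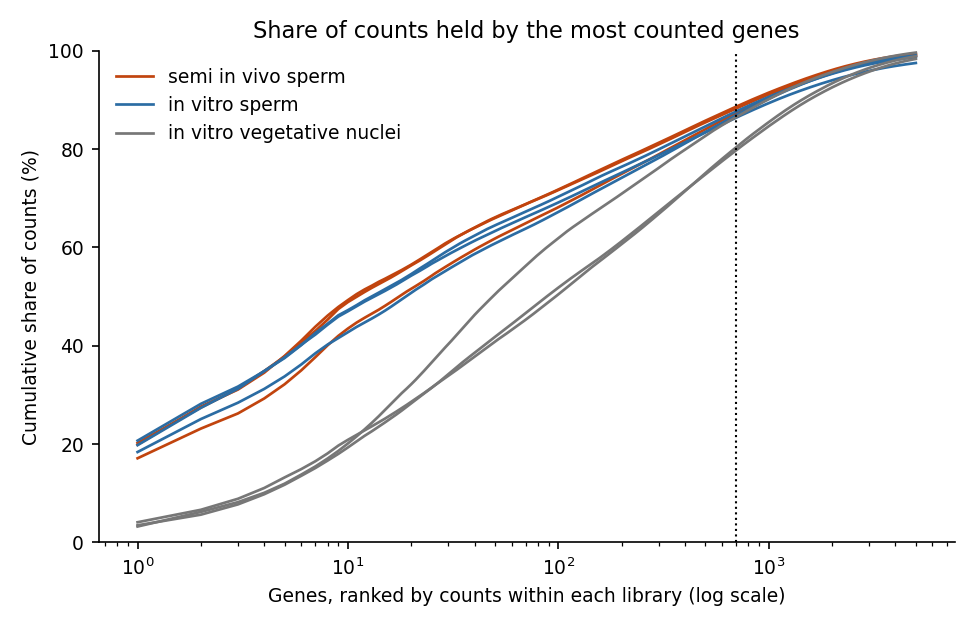
Cumulative share of counts (%, y axis) against genes ranked by counts within each library (x axis, log scale), 1 line a library, coloured by group. The dotted line stands at 699 genes; the 6 sperm lines start at 17.1% to 20.7% for their first gene, above the nucleus lines at 3.24% to 4.11%.

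The same genes led every library. Of the 10 most abundant genes of each sperm library, 9 were common to all 6 and 11 occurred in any. For the top 20 these numbers were 16 and 24, for the top 50 they were 44 and 55, and for the top 100 they were 75 and 122.

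DAF1 (AT3G62230), a DUO1-activated gene for an F-box protein, the part of an SCF ubiquitin ligase that picks its targets, ranked first in every sperm library. It had 198869, 171176 and 202276 CPM in semi in vivo sperm and 197891, 207018 and 183884 CPM in in vitro sperm, which overlap, and 2898, 5032 and 1976 CPM in vegetative nuclei. On average 19.4% of all sperm counts belonged to this gene. Ranked second in every library was AT1G34095, annotated only as an uncharacterized protein. It stood at 77503, 60385 and 72214 CPM in semi in vivo sperm, 75856, 74924 and 67060 CPM in in vitro sperm and 1517, 1305 and 570.4 CPM in nuclei. Longer transcripts give more counts, and on a scale of counts per kilobase of annotated exon (summing to 1000000 in each library) both genes had nearly the same level, with a median of 154643 (range 140048 to 164554) for DAF1 and 153332 (range 130452 to 158193) for AT1G34095. No UTR is annotated for AT1G34095, whose exons and coding region both span 612 bases, while DAF1 has 1616 bases of exon and 1386 of coding sequence. Per kilobase of coding sequence the medians were 115674 for DAF1 and 96873 for AT1G34095.

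CYCD7;1 (AT5G02110), a D-type cyclin at rank 3 by median, had 34570, 30463 and 37979 CPM in semi in vivo sperm and 38819, 35047 and 33235 CPM in in vitro sperm. Its nucleus values were 524.3, 618.6 and 218.9 CPM, and the sperm groups overlapped. PEG2 (AT1G49290), known as a paternally expressed imprinted gene of the endosperm, had rank 5. It had 34080, 30796 and 36176 CPM in semi in vivo sperm, all above the 26659, 25751 and 24310 CPM in in vitro sperm, and 239.5, 560.5 and 234.5 CPM in nuclei. DAZ3 (AT4G35700), a C2H2 zinc finger gene activated by DUO1, had 17704, 14977 and 14178 CPM in semi in vivo sperm, all above the 9788, 9272 and 12106 CPM in in vitro sperm. EIN3 (AT3G20770), the main transcription factor of the ethylene response, had 6225, 9719 and 6531 CPM in semi in vivo sperm and 6542, 6617 and 8184 CPM in in vitro sperm, which overlap.

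Uncharacterized genes stood high. They took 4 of the first 10 ranks and 15% of all counts there, with AT1G75870 at a median of 30318 CPM, AT4G11543 at 28454 CPM and AT2G45403 at 21619 CPM beside AT1G34095. AT2G45403 and its neighbour AT2G45405 on the same strand, also uncharacterized, ranked 8 and 30. AT2G45403 had 28326, 23974 and 23240 CPM in semi in vivo sperm against 17200, 19999 and 13308 CPM in in vitro sperm, and AT2G45405 had 5435, 3837 and 4436 CPM against 3308, 2774 and 3036 CPM. Both sat higher in every semi in vivo library. The coding regions of the 50 uncharacterized abundant genes had a median of 662 bases, against 1305 in the other abundant genes, and 20 were under 600 bases. AT4G11543 has an annotated coding region of 168 bases in 830 bases of exon, overlaps AT4G11547 on the same strand, and its ranking moved with the length used: rank 6 by CPM, rank 3 per kilobase of exon and rank 1 per kilobase of coding sequence.

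The other genes of the first 20 fell into a few roles. Further regulators were AT1G80470, an F-box gene at a median of 22066 CPM, AT4G21895, annotated as a DNA-binding protein, at 21074 CPM, and MAPKKK20, a MAP kinase kinase kinase, at 7353 CPM. Chromatin genes were AT5G15030, which has a Sin3-like paired amphipathic helix domain of corepressors, at 9590 CPM, the SET domain gene SDG4 at 6857 CPM, the CXC domain gene SOL1 at 6393 CPM and MRG1, a reader of histone methylation, at 5986 CPM. TIP5;1, an aquaporin of pollen, had 10857 CPM. PCR11, a DUO1 target of the plant cadmium resistance family, had 7848 CPM. MAGL8, an alpha/beta hydrolase, had 7109 CPM and MIOX4, a myo-inositol oxygenase that feeds cell wall sugar synthesis, 5767 CPM. Of the 10 highest by CPM, 9 were also among the 10 highest per kilobase of exon, where AT5G15030 took the place of AT1G80470.

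**Figure D2:**
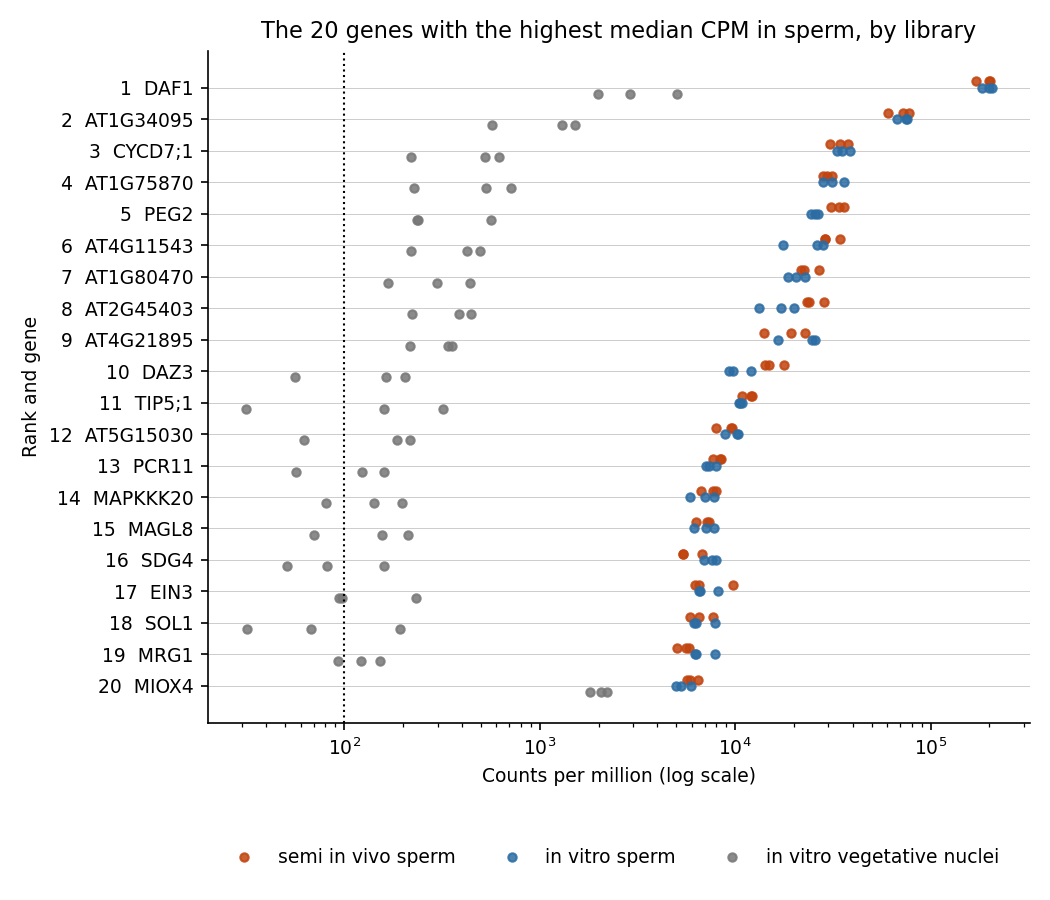
CPM in each library (x axis, log scale) of the 20 genes with the highest median CPM in sperm (y axis, by rank), with semi in vivo sperm above in vitro sperm above vegetative nuclei in each row. The dotted line marks 100 CPM; MIOX4 is the 1 gene whose nucleus points, 1815 to 2212 CPM, come close to its sperm points, 5002 to 6483 CPM.

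Among known sperm genes, 15 of 22 were abundant and held 22.6% ± 1.2 of counts (SD, n = 6), of which DAF1 alone held 19.4%. HTR10, also called MGH3, is the sperm histone H3 behind the green marker. The marker fusion contains MGH3, so its reads could count towards this gene, and both sources cannot be told apart here. HTR10 had 985.1, 857.3 and 1006 CPM in semi in vivo sperm, all below the 1540, 1177 and 1390 CPM in in vitro sperm. The order of that gene changes with scaling, as given below. GEX1, a membrane protein of gamete nuclei, had 2952 to 5248 CPM in semi in vivo sperm and 3898 to 6161 CPM in in vitro sperm. DAN1 had a sperm median of 2242 CPM, GEX3 of 742.4 CPM, DMP9, a membrane protein that acts in fertilization, of 497 CPM, and SSP, a kinase-like gene whose sperm transcript is known to act in the zygote, of 372.6 CPM. The tetraspanins TET12 and TET11 had 386.7 and 178.9 CPM, and the sperm H2B variant HTB8 285.3 CPM.

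The 7 known sperm genes outside the abundant set were DUO1 itself at 36.3 to 71.5 CPM, DAZ1 at 30.3 to 54.8 CPM, DAZ2 at 25.8 to 56.5 CPM, AGO5 at 18.8 to 33.8 CPM, DMP8 at 6.1 to 24.4 CPM, the gamete fusogen HAP2 at 73.5 to 169.8 CPM and GEX2 at 0 to 0.417 CPM. HAP2 missed the limit in a pair of libraries. The annotated GEX2 locus lies within the non-coding locus AT5G49152 on the same strand, and how reads shared by both were counted is not given in the sources used here.

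By the words in their RefSeq product names, the remaining abundant genes were placed in 18 classes, each gene in the first that matched. A product name can hide a role. ATRX, a chromatin remodelling gene at a sperm median of 2438 CPM, fell in metabolism because its product is named a P-loop hydrolase. The largest by number, beside 188 genes with other products, were 103 genes of metabolism, 53 of ubiquitin and proteasome, 50 uncharacterized, 41 of signalling, 36 of RNA binding and processing, 34 of replication and cell cycle and 33 of chromatin. By counts, uncharacterized genes held 18.6% ± 1.7, metabolism 5.76% ± 0.40, replication and cell cycle 5.48% ± 0.30, chromatin 5.33% ± 0.32, signalling 5.1% ± 0.43, ubiquitin and proteasome 4.89% ± 0.40 and transcription factors 4.85% ± 0.57 (SD, n = 6). These shares follow 1 gene in several classes, since CYCD7;1 leads the cell cycle, PEG2 signalling and AT1G80470 the ubiquitin class. The share of a class that was abundant was 12.3% for replication and cell cycle (34 of 276 genes), 10.2% for chromatin (33 of 322), 1.31% for translation (16 of 1223) and 0.199% for small secreted proteins and cell wall inhibitors (1 of 502), beside 2.13% over all genes. It was 4.05% for RNA binding and processing and 3.53% for ubiquitin and proteasome. For metabolism (2.18% of 4733 genes) and signalling (2.09% of 1964) it was near that of all genes, and for uncharacterized genes (1.41% of 3536) below it.

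**Figure D3:**
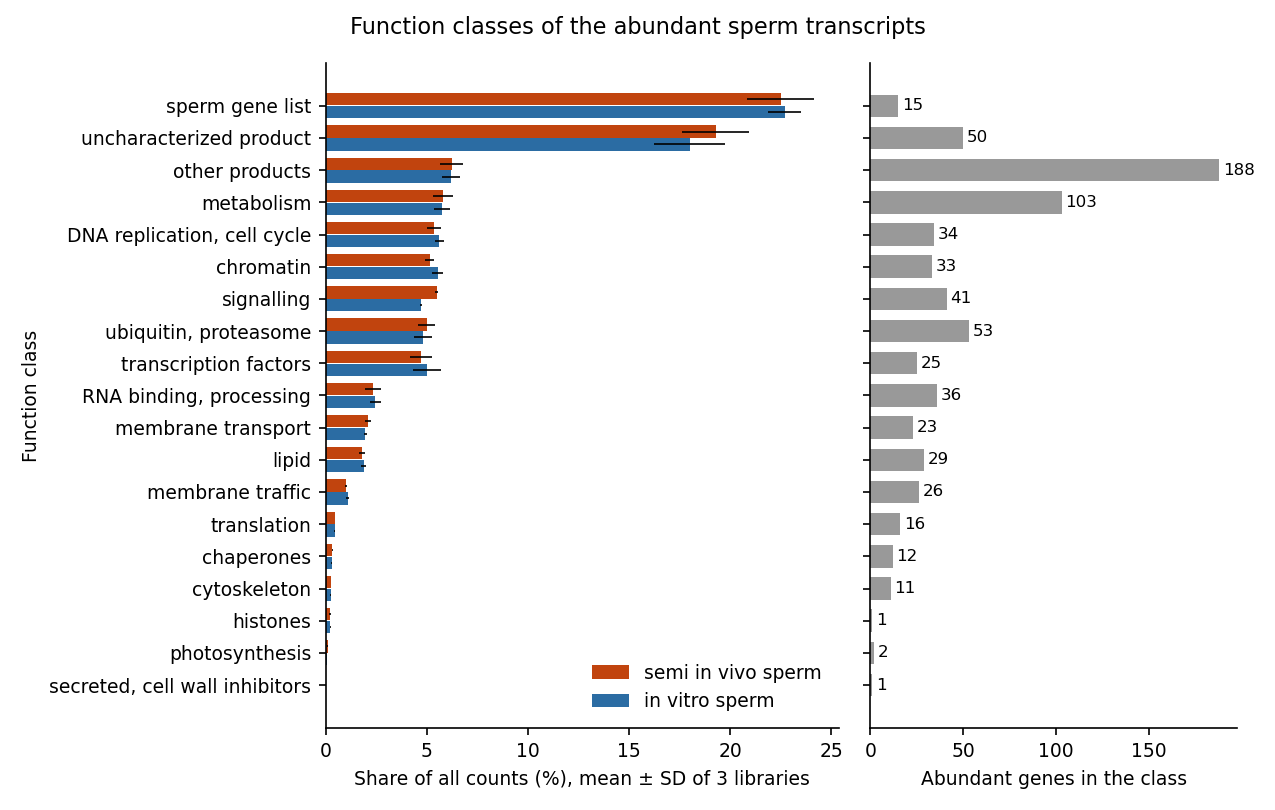
Function classes of the abundant genes (y axis). Left, share of all counts (%), with bars for the mean and whiskers for the SD of 3 semi in vivo and 3 in vitro sperm libraries; right, number of abundant genes. The sperm gene list holds 22.6% of counts with 15 genes, and metabolism 5.76% with 103.

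Genes of DNA replication and division were plentiful in cells that have passed their last division before fertilization. ORC6, part of the complex that marks replication origins, had 4399, 3492 and 4331 CPM in semi in vivo sperm and 4385, 4676 and 3868 CPM in in vitro sperm. TSO2, the small subunit of ribonucleotide reductase, which makes deoxynucleotides, had 3377, 3106 and 2962 CPM in semi in vivo sperm, all below the 4383, 3871 and 4312 CPM in in vitro sperm. The B-type cyclin CYCB1;2 had a sperm median of 1391 CPM, the helicase RTEL1 1049 CPM and CDT1A, a licensing factor of origins, 689.1 CPM. CKS2, a small subunit of cyclin-dependent kinases, had 1503, 1136 and 1258 CPM in semi in vivo sperm, all above the 729.1, 931.5 and 683.2 CPM in in vitro sperm.

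In chromatin, the remodeller CHR17 had a sperm median of 3323 CPM, the Tudor domain gene AT5G10950 5135 CPM, and ORTHL, of a family that binds methylated DNA, 1774 CPM. Of 50 histone genes left after the sperm list, 1 was abundant (2%, beside 2.13% over all genes), the H2B gene HTB5, with 1405 to 2292 CPM in semi in vivo sperm and 1846 to 2487 CPM in in vitro sperm. Histone reads of near-identical copies could be split or lost by the counting, so that number is uncertain.

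Translation genes, as classed by product words, were few and low. Such a class can miss genes whose product name does not tell their role. The 16 abundant ones held 0.444% ± 0.011 of counts (SD, n = 6), led by eIF6A, a factor of large ribosomal subunit assembly, at a median of 869.4 CPM, and AT1G07210, a ribosomal protein S18, at 751.1 CPM. RNA-binding genes held 2.39% ± 0.30, led by LARP6a at 3200 CPM, PAB5 at 3150 CPM and ECT10, of the YTH family that reads methylated RNA, at 2033 CPM. Among membrane transport genes the vacuolar proton pump subunit DET3 had 2094 CPM and the adenine nucleotide carrier ADNT1 1339 CPM. Lipid genes were led by the glucosylceramidase-type AT5G49900 at 2314 CPM and by ACD11, a lipid transfer protein, at 1837 CPM. None of the 285 organelle-encoded genes was abundant, and together they took 0.00958% to 0.0302% of sperm counts. These are shares of library counts, and how well the library method captures organelle RNA was not tested.

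RBCS3B, a small subunit of Rubisco, was the 1 photosynthesis enzyme in the set, with 579.3, 503.6 and 519.5 CPM in semi in vivo sperm, all above the 291.3, 393.7 and 414 CPM in in vitro sperm. It made up nearly the whole of a list of 10 green tissue genes, the other 9 of which stayed below 10 CPM in every sperm library; of its paralogs, RBCS2B had at most 4.22 CPM and RBCS1A and RBCS1B at most 1.25 CPM. In nuclei RBCS3B had 8.57, 10.2 and 1.02 CPM.

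Within 4 gene groups, picked after their leading genes had been seen, some members were abundant while close relatives were near 0. In ethylene signalling EIN3, EIL1 at a sperm median of 795.6 CPM and EIL2 at 150.8 CPM were abundant, and the F-box gene EBF2, which targets EIN3 for degradation, had 61.6 to 157.7 CPM. Upstream, the receptors ETR1, ERS1, ETR2, ERS2 and EIN4 did not exceed 19.8 CPM in any sperm library, the kinase CTR1 2.07 CPM, and EIN2, which passes the signal on to EIN3, was at 0 in 4 sperm libraries and at most 0.913 CPM in the others. EBF1, the second F-box gene, had 0 to 2.54 CPM in sperm and 60.4 to 112.5 CPM in nuclei.

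Of 8 poly(A)-binding proteins, which coat mRNA tails, PAB5, PAB7 at 1600 CPM, PAB2 at 1417 CPM and PAB6 at 968.7 CPM were abundant; PAB3 had a median of 33.6 CPM, and PAB1, PAB4 and PAB8 did not exceed 1.83 CPM in any sperm library. On the scale of counts per kilobase of exon, PAB5 came to a median of 1547, PAB7 to 1055, PAB2 to 659.1 and PAB6 to 622.9. Of 10 D-type cyclins only CYCD7;1 was abundant, the next being CYCD1;1 at 31.5 to 60.6 CPM. Of the core subunits that F-box proteins join, SKP1 had a median of 2978 CPM and CUL1 680.5 CPM, while the paralog ASK2 had 5.95 CPM and the RING subunit RBX1 2.59 CPM. In all, 12 of 652 genes with an F-box product were abundant (1.84%, beside 2.13% over all genes). They held 22.4% of counts, of which DAF1 made 19.4% and AT1G80470 2.22%.

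**Figure D4:**
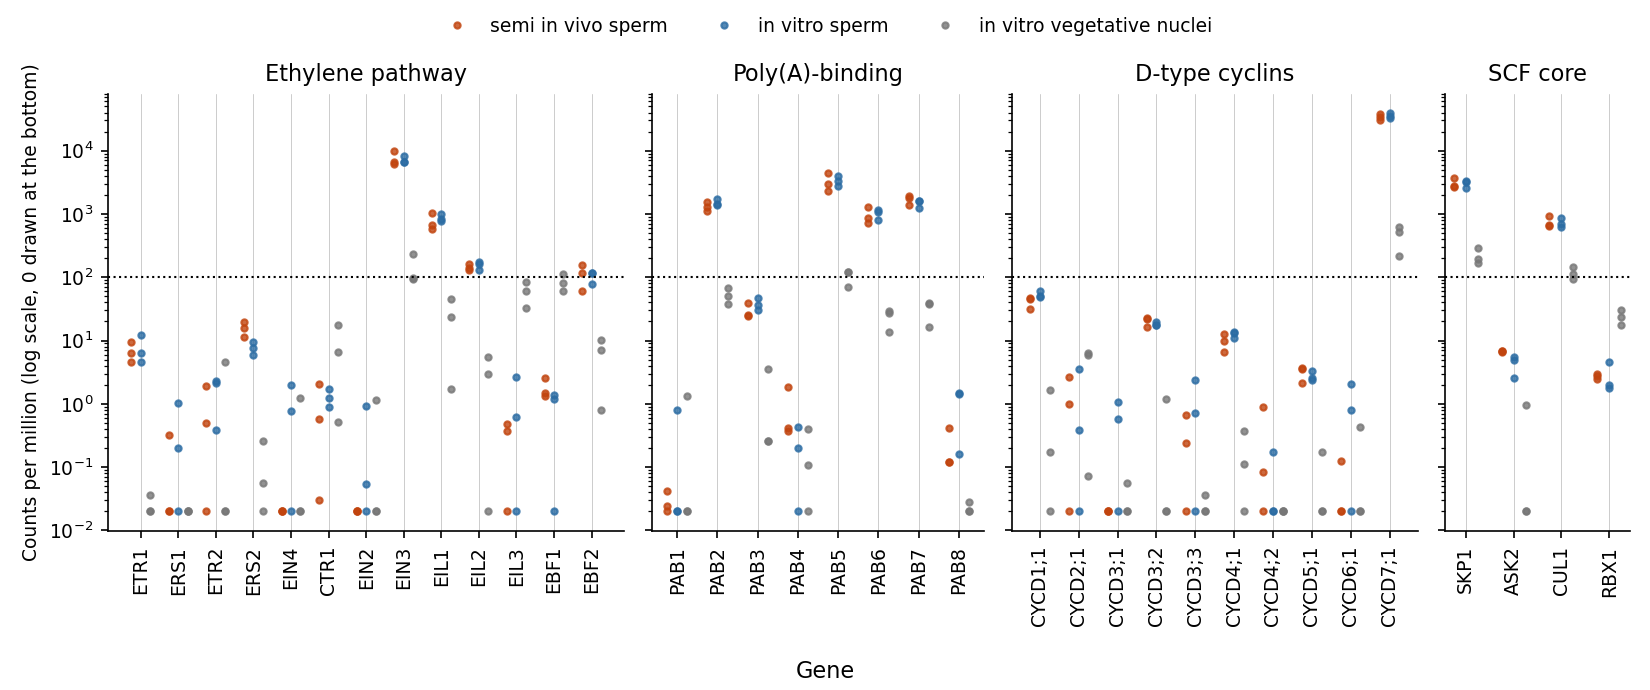
CPM (y axis, log scale, values of 0 drawn at the bottom) in each library for the genes of 4 groups (x axis), semi in vivo sperm left, in vitro sperm in the middle and vegetative nuclei right. The dotted line marks 100 CPM; CYCD7;1 lies at 30463 CPM or more in every sperm library and the other 9 D-type cyclins at 60.6 CPM or less.

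In unscaled CPM, levels of most abundant genes differed by less than 1.5-fold between the sperm groups, which the rule of 100 CPM in all 6 libraries favours. The ratio of semi in vivo to in vitro mean CPM had a median of 0.961 and ran from 0.583 to 2.165. Over the 8511 genes with a mean of at least 1 CPM in sperm, the median ratio was 0.888. Of the 699 genes, 674 were within 1.5-fold. After scaling, the median of the 699 lies on the other side of 1. It was 1.11 (range 0.67 to 2.5) with TMM and 1.05 (range 0.633 to 2.37) with RLE. All 3 semi in vivo libraries lay above all 3 in vitro libraries in 55 genes (7.87%; 6.22% of the 8511 genes with a mean of at least 1 CPM in sperm) and below them in 81 genes (11.6%; 11.8% of those 8511). Both shares are near those of the 8511 genes. With TMM scaling, which moved the median ratio over the 8511 genes by 0.216 on the log2 scale, 131 of the 699 were higher (18.7%; 11.3% of the 8511) and 4 lower (0.572%; 5.65% of the 8511). With RLE scaling, a shift of 0.126, 126 were higher (18%; 9.69% of the 8511) and 30 lower (4.29%; 7.84% of the 8511). Under unscaled CPM, TMM and RLE alike, 55 genes were higher (7.87%, beside 6.2% of the 8511). A further 4 were lower (0.572%, beside 5.5% of the 8511), and HTR10, TSO2, SDG4 and MRG1 were not among those 4.

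The largest ratio was that of AT1G47495, an uncharacterized gene with 210.5, 262.9 and 297.5 CPM in semi in vivo sperm and 103, 107.7 and 145.3 CPM in in vitro sperm. In unscaled CPM it is the 1 gene past 2-fold, while 8 genes pass it with TMM and 4 with RLE. AT3G49450, an F-box gene, had 604.2, 733.2 and 796.3 CPM in semi in vivo sperm and 365.2, 383.1 and 355.1 CPM in in vitro sperm. Also higher under all 3 scalings were ASN1, an asparagine synthase, at 1.82-fold, the C2H2 zinc finger gene TREE1 at 1.52-fold, DAZ3 at 1.504-fold and PEG2 at 1.32-fold. The 4 lower ones were AT1G24530, a WD40 repeat gene, at 0.603-fold, GLTP, a glycolipid transfer protein, at 0.688-fold, RNR2A, a small subunit of ribonucleotide reductase, at 0.712-fold and AT3G19460, a reticulon, at 0.723-fold. GLTP had 1429, 1290 and 1346 CPM in semi in vivo sperm and 1838, 2037 and 2033 CPM in in vitro sperm. The signalling class took 5.49% ± 0.073 of counts in semi in vivo sperm and 4.71% ± 0.029 in in vitro sperm (SD, n = 3 each), and PEG2 is its largest gene.

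Spread over the 6 sperm libraries was small for most abundant genes, which the rule of 100 CPM in all 6 favours. The coefficient of variation had a median of 15%, the middle 50% of genes ran from 11% to 19.7%, 130 genes were under 10% and 22 over 30%. Steadiest was AT5G59480, a HAD-type hydrolase, with 2435, 2307 and 2433 CPM in semi in vivo sperm and 2402, 2374 and 2442 CPM in in vitro sperm. Most variable was the non-coding RNA GUT15, at 273, 265.9 and 288.1 CPM in semi in vivo sperm and 403.3, 242.4 and 705.3 CPM in in vitro sperm, where 1 library sets the spread. HSP70, a heat-induced chaperone, had 527.8, 726.4 and 590.7 CPM in semi in vivo sperm and 299.4, 532.2 and 194 CPM in in vitro sperm, and ATFKBP65, a chaperone-like isomerase, had 397.8, 380.7 and 366.7 CPM in semi in vivo sperm and 170.9, 394.3 and 133.5 CPM in in vitro sperm. In both, in vitro library 2 reached the semi in vivo range and the other in vitro libraries did not.

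In vegetative nuclei the 699 genes held 6.41%, 8.19% and 6.80% of counts. A total of 85 (12.2%) also reached 100 CPM in all 3 nucleus libraries, beside 2.84% of the 29959 genes with a count and 4.93% of the 8511. They are 9.98% of the 852 genes that reach it in nuclei. In 637 of the 699 abundant genes every nucleus library lay below every sperm library, beside 51% of the 8511 genes. The choice of high sperm values favours this. Every nucleus library lay above in 21 of the 699, beside 15.2% of the 8511. The nucleus mean was a median of 4.07% of the sperm mean, with the middle 50% from 1.84% to 15.4%. That sperm mean covers semi in vivo and in vitro libraries, while nuclei came only from tubes grown in vitro.

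For 19 of the 20 most abundant genes the nucleus level lay within 1.09% to 2.09% of the sperm level, with a median over the 20 of 1.55%. The 12 abundant genes of the known sperm list outside the first 20 ranged more widely, with a median of 1.81%, from TET11 at 0.468% to GEX1 at 5.17%, and GEX1 had 103.4, 209.4 and 411.9 CPM in nuclei. Whether sperm RNA in the nucleus sort has a part in this was not tested. MIOX4 stood apart at 35.5%, with 5641, 6483 and 5893 CPM in semi in vivo sperm, 5973, 5002 and 5269 CPM in in vitro sperm and 2212, 2055 and 1815 CPM in nuclei. Lower in the ranking, the kinase PBL17 had a nucleus level of 36.1% and CYCB1;2 of 17.3%. Of the 85 genes at 100 CPM in nuclei, 9 had a nucleus level under 3% of the sperm level, 23 between 3% and 50%, and 53 over 50%.

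**Figure D5:**
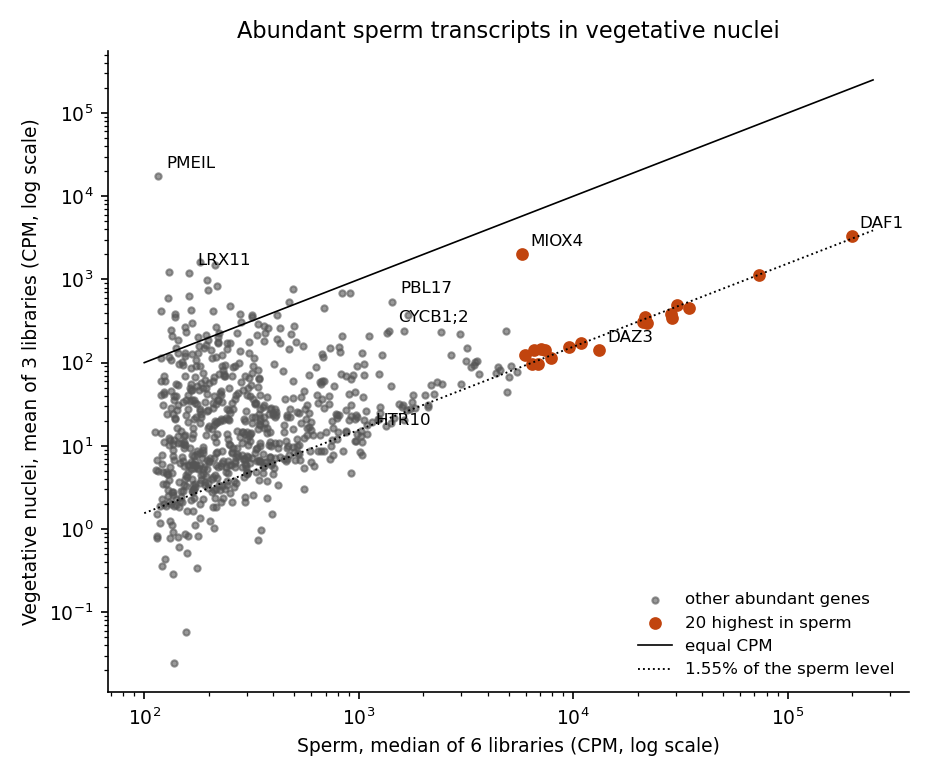
Mean CPM in 3 vegetative nucleus libraries (y axis, log scale) against median CPM in 6 sperm libraries (x axis, log scale) for the 699 abundant genes. The solid line marks equal CPM and the dotted line 1.55% of the sperm level, along which 19 of the 20 most abundant genes lie.

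The 21 genes that were higher in every nucleus library include known genes of the growing tube. PMEIL, a pectin methylesterase inhibitor-type gene, had 118.1, 107.5 and 106.3 CPM in semi in vivo sperm and 113.8, 121.1 and 137.5 CPM in in vitro sperm, against 18528, 18157 and 15972 CPM in nuclei, 150-fold more. SAMDC, an enzyme of polyamine synthesis, was 9.08-fold higher in nuclei than in sperm, the tubulin genes TUA6 and TUA2 8.58-fold and 6.3-fold, LRX11 7.62-fold and RABB1C, a small GTPase of membrane traffic, 3.93-fold. The sperm medians of these named genes lay between 115.9 and 219 CPM, and over all 21 genes they reached 494.5 CPM, in TLP7. Whether RNA of the vegetative cell in the sperm sort has a part in these sperm values was not tested.

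The limit of 100 CPM fell in a continuous range of levels. Just inside it, in the lowest library, were AT4G27480 at 100.3 CPM, AT2G14910 at 100.5 CPM and RPA32B, a subunit of the single-strand DNA-binding complex, at 100.6 CPM. Just outside were AT4G39590 at 99.63 CPM, the peroxidase RCI3 at 99.52 CPM and the kinase CDKG1 at 99.23 CPM. Another 59 genes reached 100 CPM in 5 of the 6 libraries, 55 in 4, 40 in 3, 66 in 2 and 91 in 1.

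The coding regions of the abundant genes had a median of 1263 bases, near the 1269 bases of the 8338 protein-coding genes with a mean of at least 1 CPM in sperm, beside 1047 bases over all protein-coding genes; CPM favours longer transcripts, so the rule bears on these lengths. The first 20 had a median of 955.5 bases. A single exon was annotated for 9.61% of the abundant genes, 10.9% of those at 1 CPM, 20.4% of all and 6 of the first 20. Coding regions under 300 bases made up 1.72% of the abundant genes, 2.41% of those at 1 CPM and 7.54% of all. A total of 198 abundant genes (28.3%) overlap another annotated locus, 174 of them on the opposite strand, and since the strand was not kept their counts are uncertain. Among the first 20 these are AT4G11543, AT1G80470, TIP5;1 and SOL1, whose overlapping partners had sperm medians of 9.14, 0.419, 0.0864 and 0 CPM. There were 30 pairs of direct neighbours among the abundant genes, such as UNE18 and CYCD7;1, PEG2 and RABG3E, and the chromatin genes AT5G15030 and AT5G15040.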

How the data were processed

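RNA of 6 sperm and 3 vegetative nucleus libraries was analysed. The authors deposited raw counts for each gene and library; per the submitters' processing notes, they trimmed reads with Trim Galore, aligned them with HISAT2 to TAIR10 and counted them with featureCounts. Tool versions, strand setting and handling of multi-mapping reads were not given in the sources used here. Loci were matched by code to the RefSeq annotation of TAIR10.1 (32548 of 32833 found), which gave products, lengths and upstream sequence; printed coordinates are those of TAIR10.1. A total of 2874 genes had no count.

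CPM were computed from column sums over all genes, with Python 3.11.15, pandas 2.3.3 and numpy 2.4.6. The TMM and RLE factors came from edgeR 4.0.16 under R 4.3.3 and served only as alternatives. No test between groups was made, so there are no p-values. The set rule and the word search were checked on simulated data with known answers.

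The gene set and all lists were chosen with earlier results of these data known. The rule for named genes took the 20 highest median CPM, up to 4 more from each function class, HTR10 and ACT11, 3 genes on each side of the limit and the highest per coding kilobase. No abundant gene lacked counts in every nucleus library. Other genes named were chosen after their values were seen. Keyword classes were corrected after their first matching (words such as actin had matched inside interacting), and the 4 gene groups, the exon-length ranking and the 500-base window were added after seeing the data. Comparisons of no-overlap counts use the 8511 genes with a mean of at least 1 CPM in sperm.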

Additional observations from a re-analysis of the deposited data

How the results depend on the processing

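The abundant genes numbered 1160 at 50 CPM and 370 at 200 CPM instead of 699 at 100 CPM. At a limit of 100 they numbered 844 by the mean over the 6 libraries, 823 with DAF1 left out and 526 per kilobase of coding sequence. Leaving DAF1 out of the column sums moved their share of counts to 86.11% and that of the 10 most abundant to 34.97%; per kilobase of coding sequence the 10 highest held 54.19%. Genes also abundant in nuclei numbered 136 at 50 CPM and 39 at 200 CPM in nuclei, and 61 with TMM scaling, instead of 85. The counts of genes without overlap between the sperm groups depended most on the processing: with abundance itself chosen after scaling, TMM gave 124 genes above and 5 below in vitro sperm, and RLE 123 and 32, because each scaling multiplies whole libraries. Leaving out each library in turn gave 67 to 98 higher and 95 to 162 lower genes, the most lower ones without semi in vivo library 2 (162), in vitro library 2 (160), in vitro library 1 (123) and semi in vivo library 3 (122), and 98 and 83 higher without semi in vivo library 3 and in vitro library 3; with fewer libraries non-overlap is easier to reach. Leaving out each library gave 700 to 714 abundant genes with 87.33% to 87.69% of counts, 45.84% to 47.15% in the first 10, and 85 to 106 also abundant in nuclei. Of 91 named genes, 73 changed rank by more than the spread between libraries per kilobase of coding sequence and 68 per kilobase of exon. Placing genes in every matching class raised ubiquitin and proteasome to 24.2% of counts, by adding DAF1. With 500 bases upstream, 25.1% of abundant genes held the MYB word. No paired analysis was possible because no result comes from a test.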
